A study of Mus musculus with 6 samples.

Results

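R499 tumors were compared with untreated B16 tumors in single melanoma cells profiled by full-length RNA sequencing. The comparison took the cells of the R499 tumors (015 and 016) and of the untreated B16 tumors (007 and 008) that had more than 1000 genes at a TPM (the share of a cell's transcripts, scaled to gene length and to a fixed total) above 0 and less than 10% of their TPM from genes of the mitochondrial genome. This retained 333 of the 402 deposited cells of these 4 tumors, out of 507 retained cells in all 6 tumors of the study: 91 and 86 cells of B16, and 81 and 75 cells of R499. B16 is the pigmented B16-F10 melanoma line of the C57BL/6 strain, and R499 (Res499) is a line derived from a B16 tumor that had relapsed after radiation with anti-CTLA4. In both groups 50000 cells were injected subcutaneously on the flanks of C57BL/6 mice, no drug was given, and CD45-negative cells were sorted on day 15. The other 2 tumors were B16 given anti-PD1 (B16PD1, 200 ug on each of the days 5, 8, and 11). They entered the filter on genes and the estimate of the spread between tumors, but not the differences. Their values are given beside some genes and lists. R499 is 1 line from 1 relapsed tumor, with 2 mice per group, so what is common to resistant tumors cannot be told apart from what is particular to this line.

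The level of a gene in a tumor is log2(TPM + 1), averaged over the cells retained, and the tumor is the replicate (n = 2 per group). Cells of the B16 tumors had a median of 3647 and 3388.5 genes detected, and those of the R499 tumors 3141 and 3682. R499 lost more cells to the mitochondrial limit, with 18 and 21 cells at or above it against 5 and 10 in B16. The depth in reads is unknown, since TPM holds no counts. All 7 melanocytic markers passed the filter on genes, and their summed mean TPM was 16779 and 16668 in B16 and 17188 and 16579 in R499. The 24 immune markers, of which 9 were at 0 in all 4 tumors, summed to a mean TPM of 308 and 20.7 in B16 and 7.22 and 10.7 in R499, and 1 cell of B16 007 carried 3 or more of them. Fibroblast and keratinocyte markers summed to at most 3.01 and 0.324, and the endothelial sum, 47.6 to 81.6, was nearly all Eng, while Cdh5, Kdr, and Tek were at 0.

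Some background helps to read these values. Melanoma cells that escape immune attack can differ from their parents in the antigen presentation that T cells read, and also in cell shape and migration, stress responses, and metabolism. The integrated stress response acts through the transcription factor ATF4, which turns on amino acid synthesis, amino acid transport, and the loading of transfer RNAs. The unfolded protein response, through XBP1 and ATF6, turns on the chaperones that fold secreted proteins in the endoplasmic reticulum (ER).

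Few genes passed the test over all genes, and most that did were higher in R499. Of 11264 genes tested, 7 passed an adjusted p of 0.05 (limma, two-sided, Benjamini-Hochberg), a share of 0.0621%, and 6 of them rose while 1 fell. At an unadjusted p under 0.05 there were 1188 genes, 273 higher and 915 lower in R499. Both R499 tumors lay above both B16 tumors for 11.6% of genes and below both for 30.1%. When the mean of each cell was subtracted, the median difference of all genes shifted by 0.10, from -0.07 to 0.03, these shares became 24.0% and 17.8%, and the higher genes went from 27.9% to 57.4% of the genes without overlap. A difference of at least 1 without overlap held for 50 genes higher in R499, 0.444%, and 119 lower, 1.06%. Without B16 007 the latter counts were 153 and 183, without B16 008 47 and 242, and without R499 016 93 and 290.

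The calls depended on single tumors and on the settings of the fit. All 7 genes kept their direction with any tumor left out, but without B16 008 none was called, without B16 007 Kalrn, Cav1, and Nr4a1 were, without R499 015 all but Cav1, Capn6, and Nr4a1, and without R499 016 all but Nr4a1 and Spp1. Spp1 also missed the threshold without either B16PD1 tumor (adjusted p = 0.0664 and 0.0666). The count of 7 was 0 with mean genes detected as a covariate, without the trend, with no filter on genes, or when TPM was averaged before the logarithm.

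Kalrn, which encodes a guanine nucleotide exchange factor for small GTPases, was close to absent from B16 and was detected in a large part of R499 cells. Its level was 0.02 and 0.05 in the B16 tumors and 1.86 and 3.26 in the R499 tumors, so the groups did not overlap, although the R499 tumors differed from each other by more than those of B16. The difference was 2.53 ± 0.32 (SE, adjusted p = 0.00544). Kalrn passed the filter on genes, detection in over 5 cells, only through the R499 cells in which it is high. With no filter on genes its adjusted p in the same fit was 0.474. It was detected in 1.10% and 1.16% of B16 cells and in 34.6% and 64.0% of R499 cells. In the B16PD1 tumors its level was 0.08 and 0.00. The gene lies at chr16:33969073-34573532 (minus strand, GRCm38).

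Cav1, the main coat protein of caveolae, was present in B16 and higher in R499. Its level was 2.31 and 1.16 in B16 and 4.43 and 3.88 in R499, a difference of 2.42 ± 0.38 (adjusted p = 0.0176). The share of cells with Cav1 was 40.7% and 22.1% in B16 against 65.4% and 64.0% in R499. Among the cells in which it was detected, the mean level was 5.67 and 5.26 in B16 and 6.77 and 6.06 in R499, so share and level were both higher. Cav1 lies at chr6:17306335-17341452 (plus strand).

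Capn6 and Fscn1 act on the cytoskeleton and gave the closest agreement between tumors of a group. Capn6, a calpain that lacks the catalytic cysteine and binds microtubules (chrX:143802231-143827414, minus strand), had levels of 1.60 and 1.44 in B16 and 3.66 and 3.42 in R499, a difference of 2.02 ± 0.30 (adjusted p = 0.0137). It was detected in 33.0% and 33.7% of B16 cells and in 67.9% and 66.7% of R499 cells. Fscn1, which bundles actin filaments in cell protrusions (chr5:142960343-142973185, plus strand), had levels of 0.38 and 0.44 in B16 and 1.89 and 1.84 in R499, a difference of 1.45 ± 0.19 (adjusted p = 0.00566). The tumors of a group thus differed by at most 0.24 for these genes, while the groups did not overlap.

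Spp1 and Itm2a were low in B16 and were raised in a minority of R499 cells. Spp1 encodes osteopontin, a secreted ligand of integrins and CD44 (chr5:104435118-104441050, plus strand), and its level was 0.68 and 0.31 in B16 and 1.66 and 2.20 in R499, a difference of 1.43 ± 0.25 (adjusted p = 0.0405). It was detected in 12.1% and 6.98% of B16 cells and in 27.2% and 36.0% of R499 cells. Itm2a, a membrane protein with a BRICHOS domain (chrX:107397099-107403376, minus strand), had levels of 0.02 and 0.18 in B16 and 1.41 and 0.98 in R499, a difference of 1.10 ± 0.15 (adjusted p = 0.00566). Its share of cells went from 1.10% and 3.49% in B16 to 27.2% and 18.7% in R499.

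Nr4a1 was the gene that fell. It encodes an orphan nuclear receptor that is transcribed within minutes of many stimuli. Its level was 4.44 and 4.99 in B16 and 2.62 and 2.47 in R499, a difference of -2.17 ± 0.34 (adjusted p = 0.0157), and the B16PD1 tumors lay near B16 at 4.10 and 4.0. The transcript was detected in 74.7% and 83.7% of B16 cells and in 51.9% and 48.0% of R499 cells. Among the cells with the transcript the level was 5.94 and 5.96 in B16 and 5.06 and 5.14 in R499. Nr4a1 lies at chr15:101254269-101274795 (plus strand).

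**Figure D1:**
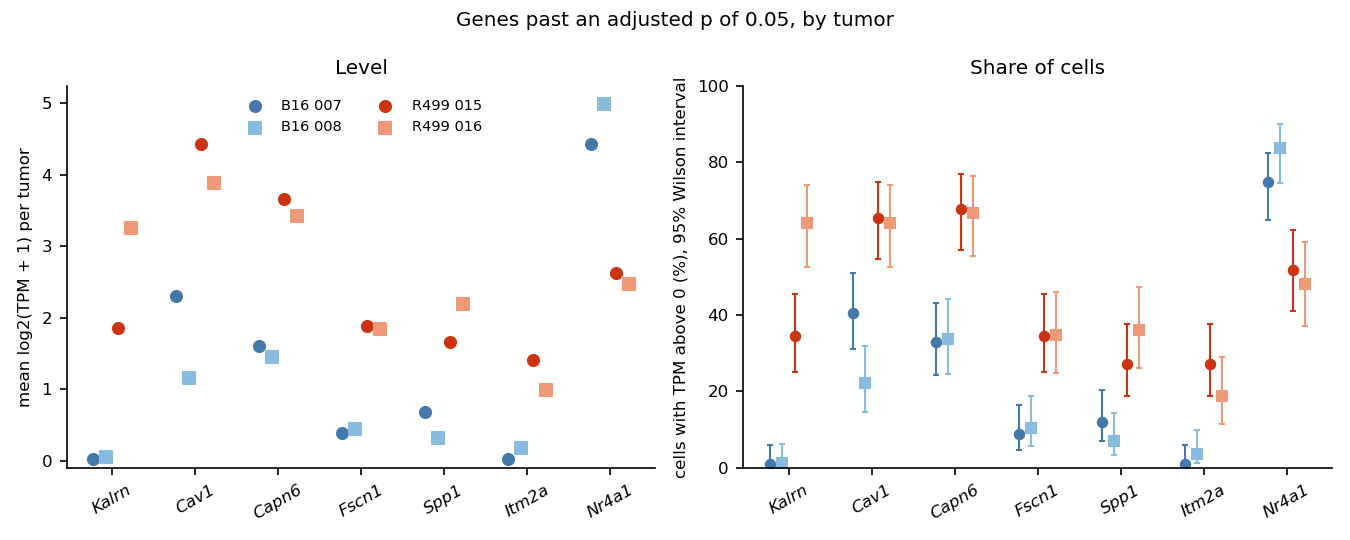
Mean log2(TPM + 1) per tumor (left) and percent of cells with TPM above 0 with 95% Wilson intervals (right) for the 7 genes past an adjusted p of 0.05, with a point for each B16 tumor (blue) and each R499 tumor (red). The tumors of the groups do not overlap for any of the 7 genes, and Kalrn goes from about 1% of B16 cells to 34.6% and 64.0% of R499 cells.

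The 6 raised genes were seldom detected together in a B16 cell and often in an R499 cell. These genes were chosen by the same contrast, so this is a description with no test. Cells with 3 or more of the 6 genes made up 5.49% and 2.33% of the B16 tumors and 56.8% and 58.7% of the R499 tumors, and the median number detected was 1 in each B16 tumor and 3 in each R499 tumor. R499 cells with no raised gene remained, at 7 of 81 and 3 of 75 cells, against 38.5% and 48.8% of B16 cells. In the B16PD1 tumors 3.49% and 3.41% of cells had 3 or more.

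**Figure D2:**
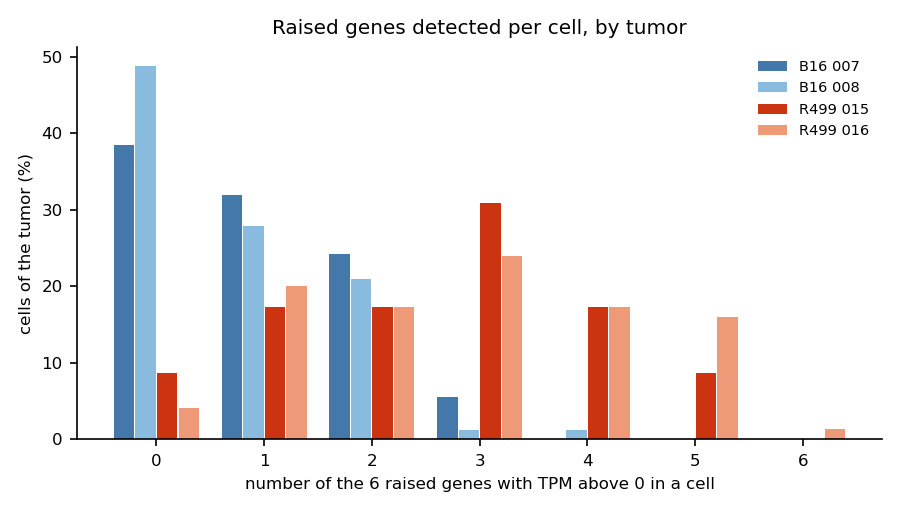
Percent of the cells of each tumor (vertical axis) by the number of the 6 raised genes with TPM above 0 (horizontal axis), with bars for each B16 tumor (blue) and each R499 tumor (red). B16 cells crowd at 0 and 1, and R499 cells have a median of 3.

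The share of cells with a transcript was also fitted for every gene, with limma on the arcsine square root scale. No gene passed an adjusted p of 0.05 (0%, lowest adjusted p = 0.350). At an unadjusted p under 0.05 there were 1137 genes, with fewer positive cells in R499 for 945 and more for 192, and the median change over all genes was -1.55 percentage points. The adjusted test thus called 0 genes for shares and 7 for levels, while the unadjusted counts, 1137 and 1188, were close. Both fits rest on 2 tumors a group with unknown depth, and a 2 against 2 exact permutation test cannot go below a p of 0.333.

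Other genes with large differences missed the threshold. Tmsb4x, thymosin beta 4, which binds actin monomers, was at 3.17 and 2.47 in B16 and at 5.23 and 4.68 in R499, a difference of 2.13 ± 0.39 (adjusted p = 0.0592). S100a10, which binds annexin A2 at the membrane, was at 3.36 and 2.53 against 5.31 and 4.35 (difference 1.88 ± 0.39, adjusted p = 0.0947). Crip1, a small LIM domain protein, was at 1.33 and 1.24 against 3.21 and 2.97 (difference 1.80 ± 0.35, adjusted p = 0.0795). None of the 3 overlapped between the groups. Rhoc, a GTPase of cell motility, was at 4.05 and 3.66 in B16 and 6.34 and 4.90 in R499 (difference 1.77 ± 0.42, adjusted p = 0.189). The B16PD1 tumors had Rhoc at 5.32 and 4.95, both above R499 016, and S100a10 at 4.12 and 4.12, between B16 and R499. Crip1 was at 2.36 and 1.33 in B16PD1, and Tmsb4x at 2.32 and 3.21. With all deposited cells, before the limits on cells, Tmsb4x, S100a10, and Crip1 passed with adjusted p of 0.0274, 0.0157, and 0.00894.

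Serpinf1, Car6, and Brd2 were among the largest differences on the lower side, and none passed the threshold. Serpinf1, the secreted pigment epithelium-derived factor, was at 2.34 and 2.89 in B16 and at 0.41 and 1.20 in R499 (difference -1.81 ± 0.35, adjusted p = 0.0813), and it was detected in 34.1% and 40.7% of B16 cells against 7.41% of R499 015 cells and 15 of the 75 cells of R499 016. Car6, a secreted carbonic anhydrase that was abundant in all tumors, was at 8.84 and 9.20 against 6.90 and 7.87 (difference -1.64 ± 0.32, adjusted p = 0.0795). Brd2, which binds acetylated histones, was at 5.08 and 4.74 against 2.94 and 3.57 (difference -1.66 ± 0.39, adjusted p = 0.189). Both R499 tumors lay below both B16 tumors for all 3 genes, and with all deposited cells Serpinf1 and Car6 passed, each with an adjusted p of 0.0434. The small nucleolar RNAs Rnu3b1 to Rnu3b4 had 1 identical set of values (difference -1.56), and since reads of such near-identical copies can be split among them, these values are uncertain.

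Beyond single genes, 34 lists of genes were described by how many of their members kept the tumors of the groups apart and by the median difference over members, beside 11.6% higher, 30.1% lower, and a median of -0.07 over all tested genes. The lists of ATF4 targets and of ER chaperones were the lowest by median, and S100 proteins and nuclear-encoded oxidative phosphorylation the highest. The median kept its sign under all 19 alternatives for these 4 lists, and also for immediate early genes, S phase, MAPK pathway and feedback, heat shock and chaperonin, small GTPases and exchange factors, and mitochondrially encoded proteins. For the other 24 lists the sign changed under at least 1 alternative.

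**Figure D3:**
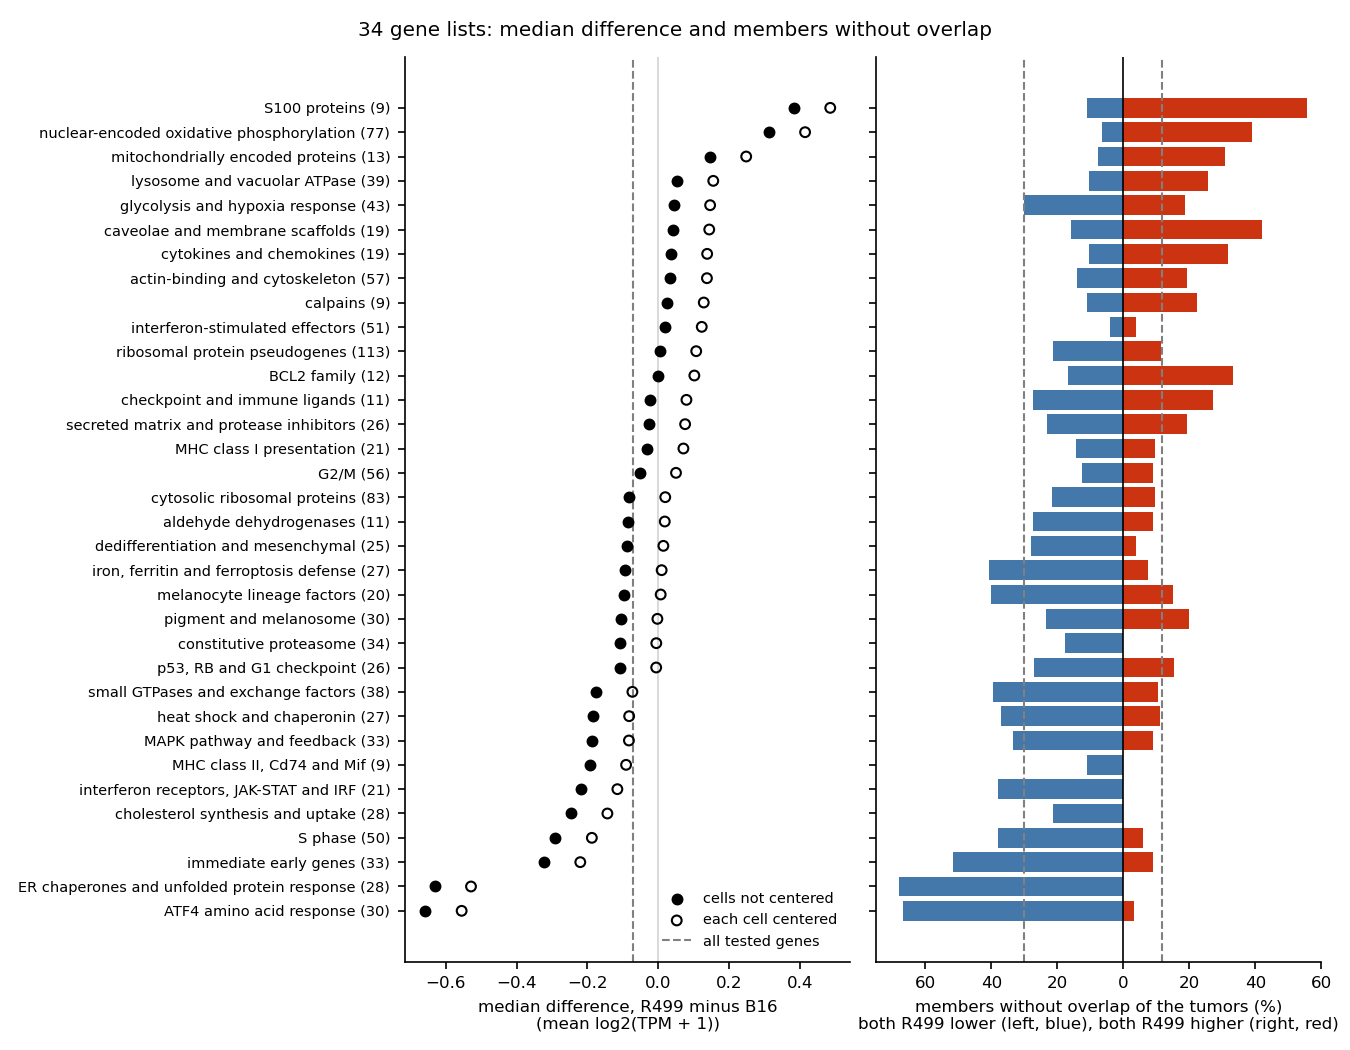
Median difference, R499 minus B16, in mean log2(TPM + 1) for 34 gene lists, with cells not centered (filled) and each cell centered (open), and the median of all tested genes as a dashed line (left); percent of members with both R499 tumors below (blue, to the left) or above (red, to the right) both B16 tumors, with dashed lines at 30.1% and 11.6% for all genes (right). The number of measured members is in brackets, and ATF4 amino acid response and ER chaperones stand lowest, at -0.66 and -0.63.

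ATF4 targets were lower in R499 as a group. Of 30 members, all of which passed the filter on genes, 20 had both R499 tumors below both B16 tumors and 1 had both above, and the median difference was -0.66. With each cell centered these counts were 18 and 3 and the median was -0.56, and in cells with 2000 to 5000 genes the median was -0.44. Leaving out a tumor of either group gave medians of -0.86 to -0.47. No member passed an adjusted p of 0.05, and 16 had an unadjusted p under 0.05, all of them lower. The mean level over members was 4.22 and 4.40 in B16 and 3.61 and 3.89 in R499.

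Atf4 itself was at 8.5 and 9.05 in B16 and at 7.81 and 8.25 in R499 (difference -0.75 ± 0.30, adjusted p = 0.386). Among amino acid enzymes, Aldh1l2, a mitochondrial enzyme of folate metabolism, was at 2.65 and 2.43 against 0.75 and 1.75 (difference -1.29 ± 0.34, adjusted p = 0.218), and Psph and Psat1 of serine synthesis had differences of -1.06 ± 0.34 and -1.03 ± 0.36. Asns, asparagine synthetase, was at 7.78 and 8.06 in B16 and at 7.0 and 7.36 in R499. In each of these genes both R499 tumors were the lowest of the 4. Of the transfer RNA synthetases, Gars, for glycine, was at 7.47 and 7.61 against 6.26 and 6.31 (difference -1.25 ± 0.34, adjusted p = 0.218), and Iars, for isoleucine, was at 5.18 and 5.57 against 4.21 and 4.34 (difference -1.10 ± 0.33, adjusted p = 0.310). Mars, for methionine, had a difference of 0.17, so the synthetases did not all differ in the same direction.

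Amino acid transporters of the list lay lower too. Slc7a1, which imports arginine and lysine, was at 3.475 and 3.88 in B16 and at 2.31 and 2.89 in R499, and Slc1a4, which carries neutral amino acids, at 1.37 and 1.43 against 0.54 and 0.65. Slc3a2, the heavy chain that pairs with Slc7a5 and Slc7a11, was at 8.08 and 8.12 against 7.61 and 7.07. The stress regulators Nupr1 and Trib3 had differences of -1.24 ± 0.39 and -0.86 ± 0.31. Of the 30 members of the list, 6 had a difference above 0. Ddit3, the transcription factor CHOP, was the only 1 with both R499 tumors above both B16 tumors. Its level was 5.52 and 5.90 in B16 and 6.14 and 6.20 in R499 (difference 0.46 ± 0.32, adjusted p = 0.635).

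The letters of the ATF4 response element stood in the promoters of many members, and the windows of 5 of them are shown as examples of the element in genes at lower levels in R499. Asns, Trib3, Gars, and Iars are described above, and Chac1, which breaks down glutathione, had a difference of -0.76 ± 0.33 (adjusted p = 0.427). The element was searched as TGATGNAA on both strands in RefSeq promoters of GRCm38.p6, from 250 bases before to 50 bases after each start. It occurred in 10 of the 22 members with a promoter in the table (45.5%) and in 230 of 8712 tested genes with a promoter (2.64%). The list was made of known targets, so the first share is a property of the list. Of those 10 genes, 9 had both R499 tumors below both B16 tumors, and Vldlr overlapped. Among the 220 genes with these letters outside the list, 31.8% were lower without overlap, close to the 30.9% of all genes with a promoter. The windows run 5′ to 3′ along the gene with the element in capitals, which in all but Asns stands on the reverse strand.
Asns (chr6:7693199-7693258, minus strand): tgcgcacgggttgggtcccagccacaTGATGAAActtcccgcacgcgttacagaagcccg
Trib3 (chr2:152344013-152344072, minus strand): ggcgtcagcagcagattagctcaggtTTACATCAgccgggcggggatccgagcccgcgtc
Chac1 (chr2:119351023-119351082, plus strand): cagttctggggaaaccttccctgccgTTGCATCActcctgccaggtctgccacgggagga
Gars (chr6:55037945-55038004, plus strand): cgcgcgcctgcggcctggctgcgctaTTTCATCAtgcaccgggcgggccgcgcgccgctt
Iars (chr13:49682111-49682170, plus strand): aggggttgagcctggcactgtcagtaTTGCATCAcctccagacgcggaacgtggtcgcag

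ER chaperones and unfolded protein response genes showed the same pattern without exception in sign. All 28 members that passed the filter, of 29 listed, had a difference below 0, 19 had both R499 tumors below both B16 tumors, none had both above, and the median difference was -0.63. With each cell centered 11 members did not overlap, all of them lower in R499, and the median was -0.53. The median was -0.32 without B16 008, the B16 tumor with the higher chaperone levels, and -0.86 without B16 007. No member passed an adjusted p of 0.05, and 10 had an unadjusted p under 0.05.

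Hspa5, the ER chaperone BiP, was at 8.82 and 9.61 in B16 and at 8.28 and 8.70 in R499 (difference -0.72 ± 0.30, adjusted p = 0.403). Sdf2l1, a BiP cofactor, had the largest difference, -1.21 ± 0.47, with R499 015 at 2.32 and R499 016 at 4.11 against 4.12 and 4.72 in B16, so R499 016 lay next to B16 007. Xbp1, the transcription factor that drives this response, was at 5.24 and 4.08 in B16 and at 3.68 and 3.33 in R499 (difference -1.16 ± 0.46, adjusted p = 0.384). Dnajc3 and Creld2 had differences of -0.99 ± 0.34 and -0.94 ± 0.34, and Syvn1, a ubiquitin ligase of ER-associated degradation, was detected in 35.2% and 36.0% of B16 cells against 18.5% and 24.0% of R499 cells. The stress sensors Ern1 and Atf6 had differences of -0.13 and -0.22.

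The ER stress response element, searched as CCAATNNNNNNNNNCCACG on both strands, occurred in 6 of 23 members with a promoter (26.1%) and in 18 of 8712 tested genes (0.207%). All 6 members had both R499 tumors below both B16 tumors. Of the 12 genes outside the list with this element, 5 were lower without overlap (41.7%) and 2 higher (16.7%). Over all genes with a promoter these shares were 30.9% and 11.6%, so such small counts do not set the 12 genes apart. The lower ones were Alg12, Xlr3a, Xlr3c, Calr, and Canx. Calr, calreticulin, was at 8.46 and 8.35 in B16 against 7.54 and 7.76 in R499, and Canx, calnexin, had a difference of -0.32. The windows of the 6 members follow, 5′ to 3′ along the gene, with the element in capitals. Creld2 holds it on the reverse strand, and Hsp90b1 holds a further copy outside the window shown. A match gives the letters only and was not tested as a binding site.
Hspa5 (chr2:34772005-34772063, plus strand): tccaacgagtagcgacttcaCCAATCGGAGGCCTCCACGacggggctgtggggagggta
Hsp90b1 (chr10:86705618-86705676, minus strand): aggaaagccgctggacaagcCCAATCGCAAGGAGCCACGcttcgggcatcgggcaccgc
Pdia6 (chr12:17266471-17266529, plus strand): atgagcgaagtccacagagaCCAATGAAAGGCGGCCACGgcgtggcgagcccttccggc
Creld2 (chr15:88819500-88819558, plus strand): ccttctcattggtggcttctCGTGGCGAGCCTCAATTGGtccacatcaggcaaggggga
Dnajc3 (chr14:118937807-118937865, plus strand): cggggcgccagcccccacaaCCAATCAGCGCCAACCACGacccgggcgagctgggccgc
Syvn1 (chr19:6046512-6046570, plus strand): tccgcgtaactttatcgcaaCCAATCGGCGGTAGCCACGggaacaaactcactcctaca

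Nuclear genes of oxidative phosphorylation were higher in R499 than in untreated B16 as a group. Of 77 members, 68 had a difference above 0, 30 had both R499 tumors above both B16 tumors, 5 had both below, and the median difference was 0.31. With each cell centered 40 were higher and 2 lower without overlap, and the median was 0.41. The median was 0.14 without B16 008 and 0.52 without B16 007. No member passed an adjusted p of 0.05. The mean level over members was 8.16 and 7.81 in B16 and 8.37 and 8.19 in R499, so the B16 tumors differed from each other by more than the means of the groups did. The B16PD1 tumors were at 8.31 and 8.09, the higher of them above R499 016.

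The differences were uneven within the list. Uqcrb, a subunit of complex III, was at 8.84 and 7.89 in B16 and at 9.92 and 9.79 in R499 (difference 1.49 ± 0.30, adjusted p = 0.0907), and Ndufa12, an accessory subunit of complex I, was at 7.80 and 7.58 against 9.18 and 8.80 (difference 1.30 ± 0.28, adjusted p = 0.0995). Both passed an adjusted p of 0.05 when each cell was centered, at 0.00799 and 0.0245. Atp5b, a catalytic subunit of ATP synthase and the most abundant member, was at 11.53 and 11.23 in B16 and 11.81 and 11.71 in R499. Ndufs1, the largest core subunit of complex I, went the other way, at 6.92 and 6.80 in B16 against 6.19 and 5.78 in R499 (difference -0.88 ± 0.32, adjusted p = 0.378). The 13 mitochondrially encoded proteins had a median difference of 0.15, with 4 higher and 1 lower without overlap and a median of 0.02 without R499 016 and 0.07 without B16 008, in cells that had been chosen for a low mitochondrial share.

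**Figure D4:**
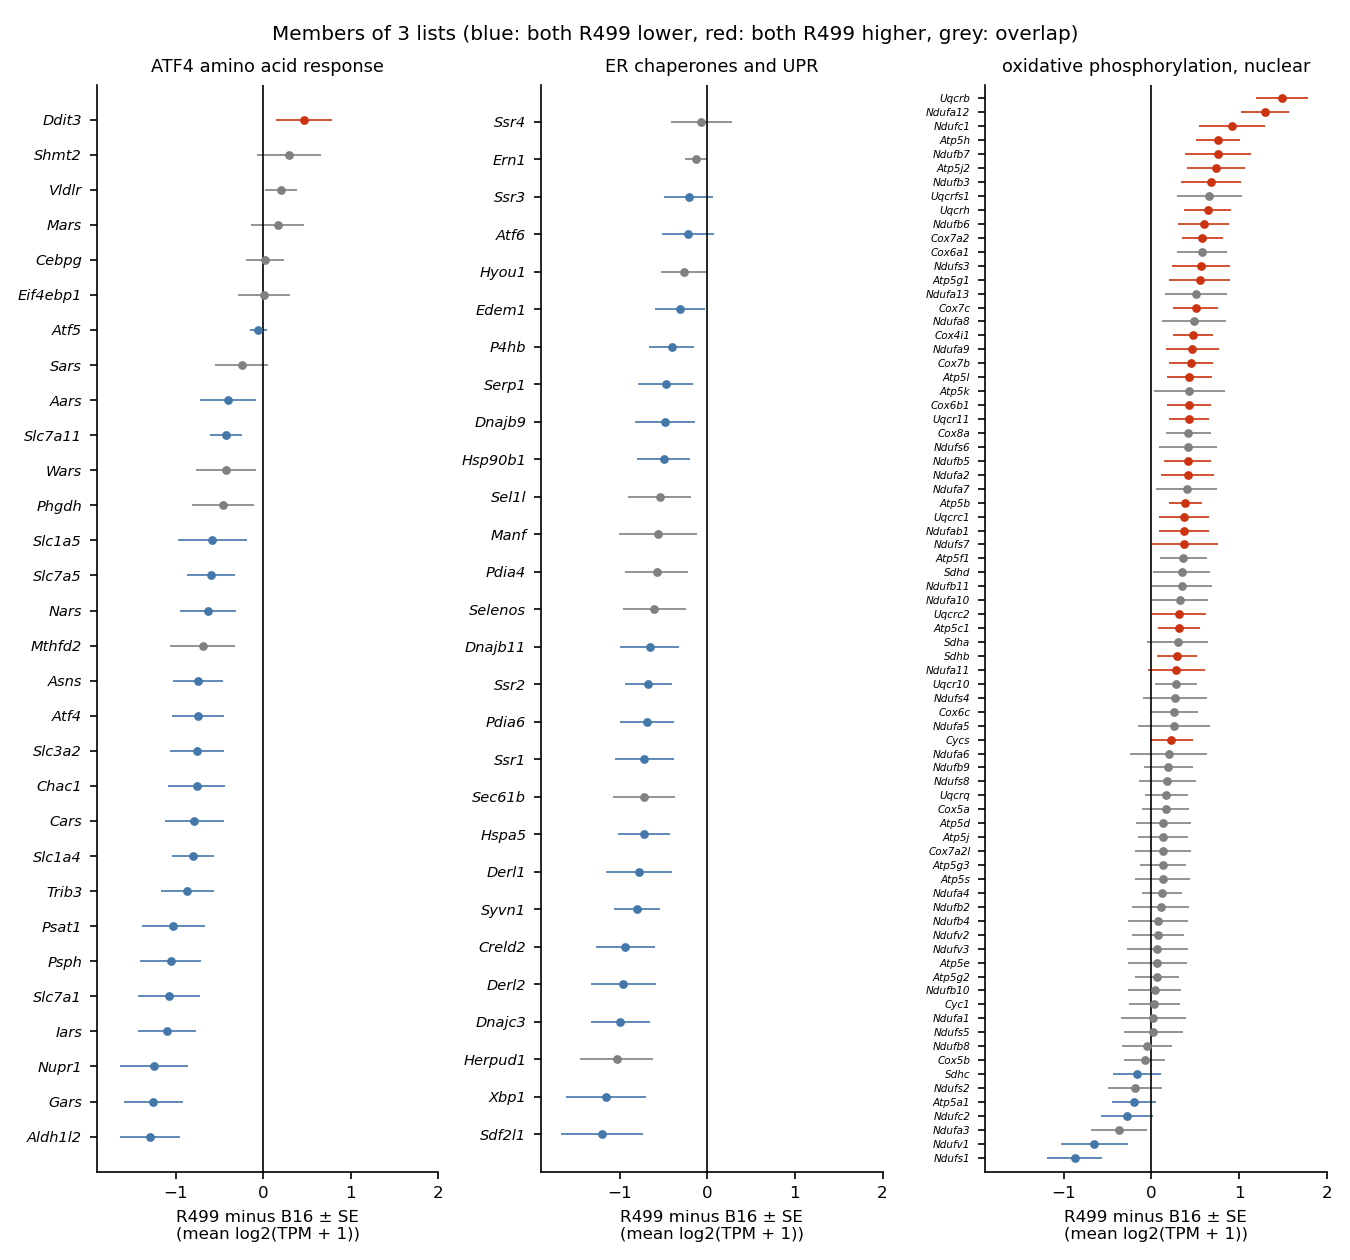
Difference in mean log2(TPM + 1), R499 minus B16, with its SE, for each member of the ATF4 amino acid response, the ER chaperones and unfolded protein response (UPR), and nuclear-encoded oxidative phosphorylation. Members with both R499 tumors below both B16 tumors are blue, those with both above are red, and the others are grey: 20 of 30 and 19 of 28 are blue in the first and second panels, and 30 of 77 are red in the third.

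Immediate early genes, which cells transcribe within minutes of growth factor or stress signals, lay lower around Nr4a1. Of 33 measured members 17 had both R499 tumors below both B16 tumors and 3 above, with a median difference of -0.32, or -0.22 with each cell centered, and 15 and 5 without overlap. Leaving out a tumor gave medians of -0.37 to -0.17, the latter without B16 007. The related receptors Nr4a2 and Nr4a3 had differences of -1.0 ± 0.24 and -0.92 ± 0.28, and Nr4a2 was detected in 38.5% and 25.6% of B16 cells against 11.1% and 9.33% of R499 cells. The AP-1 subunit Fos was at 6.32 and 6.56 in B16 and at 5.02 and 5.87 in R499, and its partner Jun at 1.34 and 1.64 against 0.70 and 0.80. Dusp1, a phosphatase that turns off MAP kinases, was at 3.2 and 2.38 against 1.11 and 1.75 (difference -1.35 ± 0.39, adjusted p = 0.281), and Ppp1r15a, which ends the block of translation in stress, at 4.64 and 4.16 against 3.04 and 3.17 (difference -1.29 ± 0.33, adjusted p = 0.218). Srf, the factor that binds serum response elements, was higher in R499, at 0.12 and 0.11 against 0.45 and 0.32. Of the members only Nr4a1 passed the adjusted test.

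Scores per cell kept the tumors of the groups apart for these genes as well. A cell's score is its mean over the list minus its mean over all tested genes, and a cell counts as high above the upper quartile of the 333 cells, so it is a range and not a cell type. For immediate early genes 38.5% and 30.2% of B16 cells and 17.3% and 10.7% of R499 cells were high, without overlap of the tumors, and 32 cells lay within 0.1 of the limit. The values of the B16 tumor with fewer high cells and of the R499 tumor with more had overlapping 95% Wilson intervals, 21.5% to 40.6% and 10.6% to 26.9%, which cover counting error only.

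The median difference of S phase genes lay below that of all genes, and that of G2/M genes did not. Of 50 S phase genes 19 (38%) had both R499 tumors below both B16 tumors and 3 (6%) above, against 30.1% and 11.6% of all genes. The median difference was -0.29. With each cell centered 15 were lower and 7 higher, against 17.8% and 24.0% of all genes, and the median was -0.19. Mcm6, a subunit of the replicative helicase, was at 5.13 and 4.90 in B16 and at 3.73 and 4.03 in R499 (difference -1.14 ± 0.34, adjusted p = 0.309), and Dtl, which guides the destruction of licensing factors, was at 1.79 and 2.76 against 0.95 and 1.31. Tyms, thymidylate synthase, was higher in both R499 tumors, with a difference of 0.57 ± 0.42. High S phase scores were found in 26.4% and 30.2% of B16 cells and in 21% and 21.3% of R499 cells, with intervals that overlapped. The median S phase scores were 0.04 and 0.11 in B16 and -0.13 and 0.08 in R499, so by median R499 016 lay between the B16 tumors. The 56 G2/M genes had a median of -0.05, -0.24 without B16 007 and 0.15 without B16 008, with 5 higher and 7 lower without overlap, or 8 and 2 with each cell centered. High G2/M scores were found in 14.3% and 30.2% of B16 cells and 25.9% and 30.7% of R499 cells. R499 015 thus lay between the B16 tumors, and R499 016 lay close to B16 008. Whether the S phase genes differ between the groups in cycling or in level per cell was not tested.

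**Figure D5:**
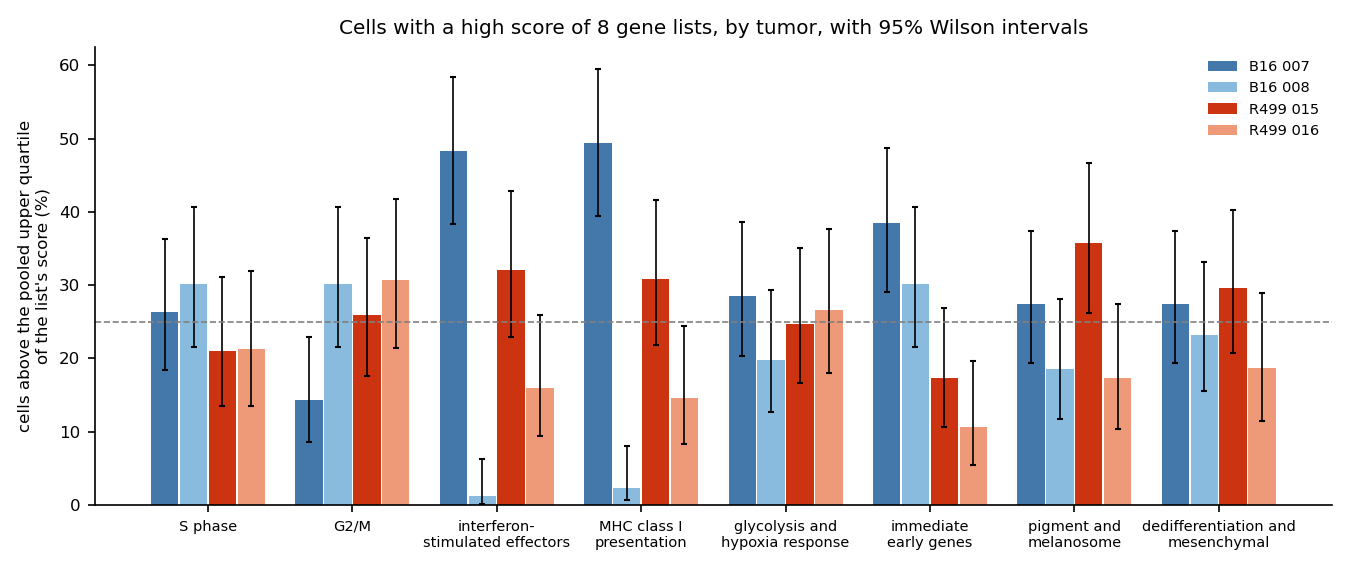
Percent of the cells of each tumor with a score above the pooled upper quartile for 8 gene lists, with bars for each B16 tumor (blue) and each R499 tumor (red), 95% Wilson intervals as error bars, and a dashed line at 25%. At this limit the tumors of the groups do not overlap for S phase and immediate early genes, although their median S phase scores do. For interferon-stimulated effectors and MHC class I presentation the B16 tumors take both extremes.

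Membrane and cytoskeletal genes were higher for some members only. Among 19 genes of caveolae and membrane scaffolds 8 had both R499 tumors above both B16 tumors and 3 below, with a median of 0.04, or 0.14 with each cell centered, 0.19 without B16 007, and 0.00 without B16 008. Besides Cav1 these included Cav2 at a difference of 0.60, the annexins Anxa1, Anxa2, and Anxa5 at 1.13, 0.75, and 0.50, and Flot1 at 0.59. Cavin1, the coat protein that caveolae also need, had a difference of -0.04 with overlap. Of 9 measured S100 genes, small calcium-binding proteins, 5 were higher without overlap and 1 lower, with a median of 0.38 that was 0.18 without B16 008. Beyond S100a10 these were S100a4, S100a13, S100a1, and S100b at differences of 0.38, 0.89, 0.73, and 0.52, while S100a16 had -0.86. The mean level over the S100 list was 2.93 and 2.32 in B16, 3.11 and 2.89 in R499, and 3.10 and 2.96 in B16PD1. In the actin-binding list of 57 genes 11 were higher and 8 lower without overlap, or 20 and 4 with each cell centered. Its most abundant members did not follow Fscn1 and Tmsb4x: Actb was at 12.25 and 12.33 in B16 and 12.46 and 12.31 in R499, and Actg1 at 12.71 and 12.54 against 12.64 and 12.66. Of 38 small GTPases and exchange factors 4 were higher without overlap, Kalrn and Rhoc among them, and 15 lower (6 and 10 with each cell centered), such as Arhgef2, a microtubule-bound exchange factor, at 4.13 and 2.98 in B16 and 2.26 and 2.76 in R499.

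Interferon-stimulated and MHC class I genes did not separate the lines. Of 51 interferon-stimulated effectors 2 were higher and 2 lower without overlap, with a median difference of 0.02, and of 21 genes of MHC class I presentation 2 were higher and 3 lower, with a median of -0.03. With each cell centered these counts were 9 and 2 and 3 and 1. Without B16 007 these medians were 0.34 and 0.27, and without B16 008 they were -0.34 and -0.74. The B16 tumors were further apart than the groups: the mean level over the interferon list was 1.76 in B16 007 and 0.80 in B16 008, with R499 between them at 1.43 and 1.13. H2-K1, a classical class I heavy chain, was at 7.08 and 3.95 in B16 and at 5.06 and 4.87 in R499, a difference of -0.56 ± 0.65 (adjusted p = 0.795), which became 1.01 without B16 007. H2-D1 was at 8.02 and 4.39 against 7.69 and 6.86 (difference 1.08 ± 0.72, adjusted p = 0.625). Its difference was 2.89 without B16 007 and -0.74 without B16 008, each with a single B16 tumor left. B2m, the class I light chain, was at 11.72 and 9.32 against 11.64 and 10.32. B16 007 was also the tumor with the immune marker sum of 308, and the part of this sum in its interferon levels was not tested; without its 1 cell with 3 or more immune markers the median of the interferon list was 0.03.

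High interferon scores were found in 48.4% and 1.16% of B16 cells and in 32.1% and 16% of R499 cells, and high class I scores in 49.5% and 2.33% against 30.9% and 14.7%. Cd274, which encodes PD-L1, was detected in 22% and 5.81% of B16 cells and in 28.4% of R499 015 cells and 15 of the 75 cells of R499 016, with levels of 0.96 and 0.24 against 1.31 and 0.79 (difference 0.45 ± 0.24, adjusted p = 0.514). Cd47, the signal that keeps macrophages from engulfing a cell, was at 2.98 and 2.58 in B16 and 1.92 and 2.07 in R499 (difference -0.79 ± 0.33, adjusted p = 0.418). Isg20, an exonuclease of the interferon response, was the member apart from its list, at 1.65 and 1.35 in B16 against 0.46 and 0.32 in R499 (difference -1.11 ± 0.22, adjusted p = 0.0795). The upstream list of interferon receptors, JAK-STAT, and IRF factors had 8 of 21 members lower and none higher without overlap. These 8 were 38.1% of the list, against 30.1% lower over all genes, and with each cell centered 6 were lower and 3 higher. Both chains of the type I receptor, Ifnar1 and Ifnar2, were among the 8, at -0.68 and -0.76. The median of the list, -0.22, became 0.06 without B16 007.

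Pigment and lineage genes had list medians near that of all genes. Of 30 pigment and melanosome genes 6 were higher and 7 lower without overlap, or 8 and 7 with each cell centered. Dct, a melanin enzyme, was at 11.99 and 11.99 in B16 and 12.04 and 12.05 in R499, and Tyrp1, another, was at 12.005 and 12.210 against 11.69 and 11.67 (difference -0.43 ± 0.18). Of 20 melanocyte lineage factors 3 were higher and 8 lower, with a median of -0.10. With each cell centered 8 were higher and 6 lower and the median was 0.01, and it was -0.01 without R499 015. Zeb2, a zinc finger factor of the melanocyte lineage, was at 4.09 and 3.27 in B16 and 2.74 and 2.28 in R499 (difference -1.17 ± 0.36, adjusted p = 0.324). Of 25 dedifferentiation and mesenchymal genes 1 was higher and 7 lower without overlap, with a median of -0.09, but 7 were higher and 3 lower with each cell centered, where the median was 0.01, and Vim was at 9.31 and 8.87 against 9.30 and 9.07. Lysosomal genes had 10 of 39 members higher and 4 lower without overlap (13 and 3 centered), with the cathepsin Ctsl at 5.13 and 4.85 in B16 and 6.25 and 5.84 in R499. The median of this list was 0.05 and was -0.10 without B16 008.

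The other lists are given by counts and, for some, by members with a difference of at least 1 without overlap. Since centering each cell moved the shares of all genes to 24.0% higher and 17.8% lower, each count is followed by its value with centering. Of 27 heat shock and chaperonin genes 3 were higher and 10 lower (5 and 7 centered), with the heat shock factor Hsf1 at 4.0 and 4.65 in B16 and 3.03 and 3.32 in R499 and the cochaperone Dnajb4 at a difference of -1.01. Of 27 genes of iron, ferritin, and ferroptosis defense 2 were higher and 11 lower (7 and 10 centered), and the median moved from -0.09 to 0.01, with the iron importer Slc11a2 at 4.43 and 4.60 against 2.91 and 3.45 and the heme oxygenase Hmox1 at 5.22 and 5.82 against 4.49 and 4.20, while the ferritin light chain Ftl1 stayed between 13.36 and 13.57 in all 4 tumors. In the MAPK pathway and feedback list 3 of 33 were higher and 11 lower (3 and 8 centered). Of 43 glycolysis and hypoxia genes 8 were higher and 13 lower, the latter close to the share of all genes, but with centering 14 were higher and 9 lower. The median of this list was above 0 either way, at 0.04 and 0.15, with hexokinase Hk2 at 5.41 and 5.09 against 3.86 and 4.64 and Gapdh between 13.37 and 13.75. Cholesterol genes had 0 of 28 higher and 6 lower (3 and 4 centered), and aldehyde dehydrogenases 1 of 11 higher and 3 lower (2 and 3 centered), with Aldh18a1 of proline synthesis at a difference of -1.32 ± 0.40. None of these single genes passed an adjusted p of 0.05.

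For genes of protein synthesis and turnover the direction of the counts turned with centering, as it did for all genes. Over all genes 11.6% were higher and 30.1% lower, against 24.0% and 17.8% centered. Cytosolic ribosomal proteins had 8 of 83 members higher (9.64%) and 18 lower (21.7%) without overlap, against 16 and 13 centered. The constitutive proteasome had 0 of 34 higher and 6 lower (17.6%), against 5 and 4 centered. Ribosomal protein pseudogenes, whose reads can come from their parent genes, had 13 of 113 higher (11.5%) and 24 lower (21.2%), against 33 and 11 centered. The p53, RB, and G1 checkpoint list had 4 of 26 higher and 7 lower (5 and 6 centered), the BCL2 family 4 of 12 higher and 2 lower (5 and 2 centered), and the calpains 2 of 9 higher, Capn6 among them, and 1 lower (4 and 1 centered). Cytokines and chemokines, where Spp1 had the highest difference, had 6 of 19 higher and 2 lower (9 and 1 centered), and checkpoint and immune ligands had 3 of 11 higher and 3 lower in both cases. The 9 genes of MHC class II, Cd74, and Mif had 0 higher and 1 lower in both cases. Secreted matrix proteins and protease inhibitors, where Serpinf1 had the lowest difference, had 5 of 26 higher and 6 lower, against 11 and 5 centered.

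By position, the highest median difference among the 93 bins of 20 Mb with 50 or more genes was at the end of chromosome 10, from 120 Mb on, where 82 genes had a median of 0.10, with 25.6% higher and 8.54% lower without overlap. The lowest was at 100 to 120 Mb of chromosome 6, where 68 genes had a median of -0.24, with 10.3% higher and 52.9% lower. Positions are those of GENCODE M21 on GRCm38, and none of the 7 genes above lies in either bin.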

How the data were processed

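Per the labels and the study's methods, CD45-negative cells of 6 tumors were loaded on the SMARTer ICELL8 system and sequenced by SMART-Seq. The authors aligned reads to mm10 with STAR and deposited TPM per gene and cell from RSEM (GATK is also named in the submitters' processing notes); versions and annotation are not given in the sources used here. The table holds 25215 genes and 602 cells. Columns name the tumor, but not which labelled replicate it is, so each tumor was a replicate without a label number. All columns were used, no chip position or index number was shared by cells, and doublets were not called.

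Cells needed more than 1000 genes at TPM above 0 and under 10% mitochondrial TPM, and a gene needed detection in over 5 of those cells. The study's minimum of mapped reads was not applied, as TPM holds no reads, so depth and its precision are unknown. Tumor means of log2(TPM + 1), a scale that understates changes of low genes, were fitted over the 6 tumors in limma 3.58.1 (R 4.3.3, eBayes with trend, 3 residual degrees of freedom), two-sided, with Benjamini-Hochberg adjustment at 0.05. The SEs and p-values start from the spread between 2 mice per group. The fit draws each gene's variance toward a trend over all genes, so neither rests on that gene's own tumors alone. The 95% intervals of shares (Wilson) reflect counting error alone, as PCR reads are not independent molecules. Lists were described by counts and medians. Members and lists were chosen with earlier results of these data known. Named genes are those past the threshold in either fit, the 15 largest differences of at least 1 without overlap at an unadjusted p under 0.05, the 2 most abundant and up to 3 most different separated members of each list, and Cd274, H2-K1, and H2-D1. Other genes were added to describe members of the lists after their values were seen. Some named genes are not reported here. Positions came from GENCODE M21. Tables and plots used Python 3.11.15 (pandas 2.3.3, numpy 2.4.6, matplotlib 3.10.9, scipy 1.17.1).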

Additional observations from a re-analysis of the deposited data

How the results depend on the processing

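The test on levels called 7 genes. It called 11 and 3 with pseudocounts of 0.1 and 10, 20 with genes in at least 10% of cells, 22 with all deposited cells, 21 with cells of over 2000 genes and under 5% mitochondrial TPM, 28 with each cell centered, and 16 in cells with 2000 to 5000 genes. It called 0 with log2 of the mean TPM plus 1, no filter on genes, no trend, or mean genes detected as a covariate, and 0 to 10 with a tumor left out; the cause was not tested. All 7 were among those called with all cells, strict cells, and centered cells, and 8 were called without cells with 3 or more immune markers, a choice made after seeing the data. None of the 7 changed sign under any of the alternatives. Of 19 alternatives Kalrn kept its call in 14, Fscn1 in 13, Cav1 in 12, Nr4a1 and Capn6 in 11, and Spp1 in 7. Itm2a kept its call in 12 of 18.

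Genes apart by at least 1 numbered 50 higher and 119 lower. They were 139 and 596 with a pseudocount of 0.1, 8 and 7 with 10, 292 and 729 with log2 of the mean TPM, and 127 and 198 with the covariate. The higher were 116 with strict cells and 150 with 2000 to 5000 genes, and the lower 71 with centered cells. Leaving out a tumor gave 47 to 153 higher and 119 to 290 lower, the most without B16 007 and R499 016. Genes without overlap, 1308 higher and 3388 lower, became 2698 and 2006 with centered cells, 2223 lower with 2000 to 5000 genes, and 1308 to 3260 higher and 3388 to 5857 lower with a tumor left out, where fewer tumors overlap by construction. The fit of shares called 0 genes except for 1 with all deposited cells.

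H2-K1 turned to 1.52 (adjusted p = 0.715) with the covariate and ranged from -2.12 to 1.01 with a tumor left out (1.01 without B16 007). H2-D1 ranged from -0.74 (without B16 008) to 2.89 (without B16 007). Of 930 values of 49 named genes under the alternatives, 3 changed sign, 52 lost a call, and 54 gained one. The medians of lists moved by less than the spread between tumors in 535 of 646 cases. No paired analysis was possible because the columns carry tumor numbers and not the labels' replicate numbers, so the replicate block was not run. With 2 tumors per group and unknown depth, small differences could not be detected.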
